A study of Mus musculus with 6 samples.

Results

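The genes described are 10 enzymes of serine synthesis and of the folate cycle, Psat1, Phgdh, Psph, Shmt1, Shmt2, Mthfd1, Mthfd1l, Mthfd2, Aldh1l1 and Aldh1l2. They were chosen by name from the 30406 genes listed in the files of every library, and all 10 were found. The choice was made with an earlier comparison of KO and WT nuclei known, in which Psat1 in the outer cortex and Mthfd1l in the zona glomerulosa had drawn attention. Differences between KO and WT in the cortex are therefore given as a description, without a p-value.

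Serine is built from a glycolytic intermediate in 3 steps, by Phgdh, then Psat1, then Psph. The serine hydroxymethyltransferases Shmt1 (cytosol) and Shmt2 (mitochondria) pass a carbon unit from serine to tetrahydrofolate. In mitochondria Mthfd2 oxidises that unit and Mthfd1l releases it as formate, which Mthfd1 in the cytosol returns to the folate pool for purine, thymidylate and methionine synthesis. Aldh1l1 in the cytosol and Aldh1l2 in mitochondria oxidise 10-formyltetrahydrofolate to carbon dioxide and produce NADPH, the reductant that steroid hydroxylation in the adrenal cortex also consumes.

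Nuclei came from frozen whole adrenal glands of female C57BL/6 J mice aged 10 to 11 months, 1 pair of glands per library. They were sorted on a DNA stain and sequenced with a droplet-based 3' method that counts unique molecular identifiers (UMIs). The groups were knockout (KO, 2 libraries) and wild type (WT, 3 libraries) for Tmem127, the gene of an endosomal and lysosomal membrane protein. The sources used here name neither the kind of knockout allele nor the deleted part of the gene. A sixth library, titled WT but with the genotype KO in its sample description, is called the unassigned library and stood outside every comparison of groups.

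Levels are in CPM, a gene's UMIs per 1000000 UMIs of the same nuclei. Tmem127 itself had 45.8 and 45.3 CPM over all nuclei of the KO libraries, against 38.0, 38.1 and 36.1 CPM for WT and 36.4 CPM for the unassigned library. Without the position of the deletion, a 3' count of this gene checks no label. Total UMIs ran from 4825169 to 43377724 per library and medians from 1289 to 7675 per barcode, with KO replicate 2 the shallowest. After filtering, 21034 nuclei remained, between 2802 and 4476 per library, and library pairs shared 2 to 9 barcodes. The unassigned library stood apart in the cortex. In the zona glomerulosa-like class its Nr4a2, an immediate early transcription factor, was at 667 CPM against 10.2 to 23.3 in the other 5. In the same class Gm42418, a transcript from a locus that overlaps ribosomal RNA sequence, was at 14949 and 11464 CPM in KO against 5541, 6903 and 3547 in WT, beside 2902 in the unassigned library.

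The nuclei fell into 22 clusters, and 13 classes of them held enough nuclei in every library to be compared. The zona glomerulosa makes aldosterone and is the outermost zone of the cortex; 3149 nuclei formed its class, with 11 of its 12 markers past the naming rule. Zona fasciculata-like nuclei, of the glucocorticoid zone, numbered 2900, and X-zone or inner cortex-like nuclei 912. A further cluster of 2487 nuclei, cluster 4, passed the rule for no zone and is left unnamed. It was led by Cthrc1 and Oca2, and Psat1 was among its 10 leading genes. Oca2 was not particular to it. In the grouped libraries Oca2 was at 268 to 388 CPM there and at 329 to 372 CPM in zona glomerulosa-like nuclei. The summed level of 12 steroidogenic markers in cluster 4 was 8250 to 9643 CPM. This lay between that of the zona glomerulosa-like nuclei (4428 to 5253 CPM) and that of the zona fasciculata-like nuclei (11819 to 16579 CPM). These 4 classes are called cortical, although only 1 of the 12 steroidogenic markers passed the naming rule in zona glomerulosa-like nuclei and 1 in cluster 4. The outer cortex is not defined in the labels, and here the zona glomerulosa-like class and cluster 4 are given for it.

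All 10 gene identifiers matched the mouse annotation of the mm10 build. Psat1 lies on chr19:15904678-15947337 on the minus strand and Mthfd1l on chr10:3973118-4167081 on the plus strand. For 5 members a gene on the other strand that the files also list overlaps them (Smcr8 for Shmt1, Ndufa4l2 for Shmt2, Gm34868 for Mthfd1, Gm15756 for Aldh1l1, D10Wsu102e for Aldh1l2), and Aldh1l1 also overlaps Gm45901 on its own strand. The sources used here do not say whether counting used strand, so those levels are uncertain to that extent. Psat1 and Mthfd1l have no such partner in the files.

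The start regions of Psat1 and Mthfd1l are shown because the KO and WT values and the unassigned library's values turn on these 2 genes. Promoters, 250 bases before to 50 after each start (RefSeq, GRCm38.p6), were found for 9 of the 10 members as 10 entries; Aldh1l2 was not matched. Each line is a 30-base window, 5′ to 3′ on the gene's strand. Capitals mark a CCAAT match in Psat1 (chr19:15925060-15925089, minus strand), whose promoter holds further CCAAT matches outside this window. In Mthfd1l (chr10:3973045-3973074, plus strand) they mark the CRE half-site TGACG, read on the reverse strand. The Psat1 window lies inside the gene's span given above, not at its upstream end. The RefSeq start used for Psat1 therefore differs from the start of that span. Which start these nuclei use was not tested.
Psat1: gggaggggagcttctgagcgagagCCAATc
Mthfd1l: tggcccccgccctgttaaCGTCAcggccac
The 4 motifs were chosen after the values were seen and were searched on both strands without use of overlap. CCAAT was in 7 of the 10 member promoters and in 37.4% of 32851 promoters of that length. TGACG was in 3 (Psph, Shmt1 and Mthfd1l) and in 20.8% of all. The ATF4 element TGATGNAA was in 0 of 10 and in 3.97% of all, and the steroidogenic factor half-site AAGGTCA was in 0 of 10 and in 4.72% of all. A match or its lack describes these letters only.

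The members differed in where they were found. Of all UMIs of each gene over the 6 libraries, the 4 cortical classes held 88.6% for Psat1 (of 1626 UMIs), 85.5% for Shmt1 (of 3062), 82.2% for Aldh1l1 (of 4338), 68.2% for Psph (of 1026) and 67.2% for Mthfd1l (of 8137). The share was 57.3% for Shmt2, 55.1% for Mthfd1, 47.3% for Mthfd2, 35.5% for Phgdh (of 220 UMIs) and 24.8% for Aldh1l2 (of 133). The classes were made by clustering on all genes, so their differences below are descriptions. UMIs were summed per library and class, with the mean ± SD over the 5 grouped libraries, and are compared within a gene only.

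**Figure D1:**
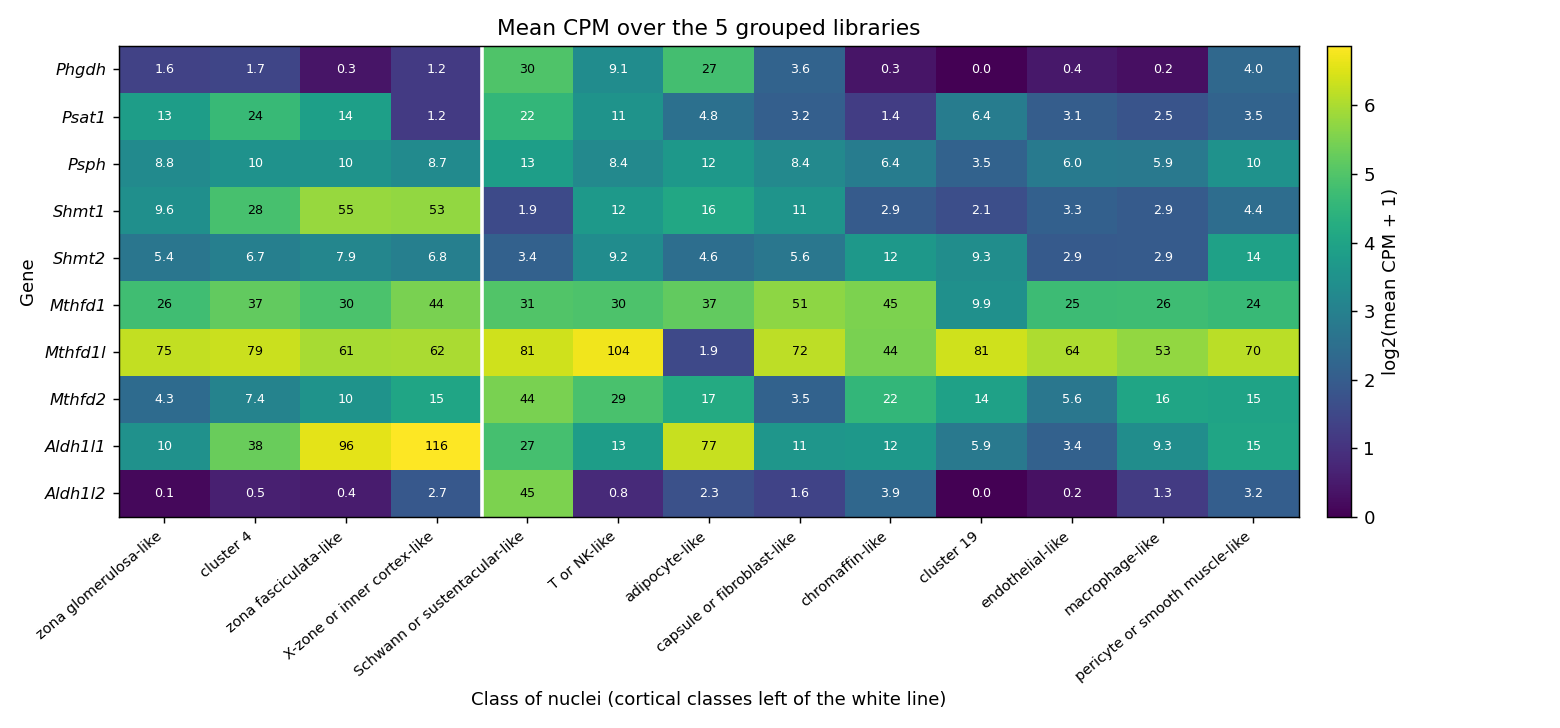
Mean CPM of each gene (rows) in each class of nuclei (columns) over the 5 grouped libraries; colour is log2(mean CPM + 1) and the printed numbers are mean CPM. Aldh1l1 is highest in X-zone or inner cortex-like nuclei (116 CPM), Psat1 in cluster 4 (23.8 CPM), and Mthfd1l is at 1.88 CPM in adipocyte-like nuclei.

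The first enzyme of serine synthesis, Phgdh, had few UMIs in the cortex. Phgdh was at 1.13 to 3.36 CPM in 3 of the grouped libraries in zona glomerulosa-like nuclei (KO replicate 1, WT replicates 1 and 3), at 0.621 CPM in WT replicate 2, and had 0 UMIs in KO replicate 2, where a count of 0 allows up to 3.68 CPM (3 UMIs). Its highest levels were in the Schwann or sustentacular-like class (glial cells of the nerves and medulla), at 30.4 ± 10.8 CPM, and in adipocyte-like nuclei, at 27.1 ± 20.6 CPM. In the Schwann or sustentacular-like class the libraries held 18.9 and 31.1 CPM in KO against 29.3, 24.8 and 47.7 CPM in WT, beside 13.6 CPM in the unassigned library, on 1 to 8 UMIs each. The KO and WT libraries overlapped, and the next class, adipocyte-like, overlapped it as well.

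Psat1, the aminotransferase of the pathway, had its highest mean in cluster 4, at 23.8 ± 8.25 CPM. It followed at 22.2 ± 15.6 CPM in Schwann or sustentacular-like nuclei, on only 14 UMIs, at 13.6 ± 6.35 CPM in zona fasciculata-like nuclei and at 13.3 ± 2.10 CPM in zona glomerulosa-like nuclei. Ranges of these neighbours in the order overlapped. Cluster 4 was the highest of the 4 cortical classes in 6 of 6 libraries, and the X-zone or inner cortex-like class was the lowest in 6 of 6. The latter had a mean of 1.24 ± 1.19 CPM, 10.9-fold below the zona fasciculata-like mean, on only 6 UMIs in the 5 grouped libraries. In KO replicate 2, the shallowest library, its count was 0, so its place there is limited by depth. Chromaffin-like nuclei, the catecholamine cells of the medulla, had 1.39 ± 0.833 CPM. Since clustering placed Psat1 among the leading genes of cluster 4, its level there restates how that cluster was made.

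Psph, the phosphatase of the last step, showed little order among classes. Its means ran from 3.46 CPM in cluster 19, a small cluster left unnamed, to 13.3 CPM in Schwann or sustentacular-like nuclei, and every neighbouring pair in the order overlapped. In the zona glomerulosa-like, cluster 4, zona fasciculata-like and inner cortex-like classes the means were 8.79, 10.3, 10.4 and 8.70 CPM.

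The cytosolic enzymes Shmt1 and Aldh1l1 had a graded level across the cortex. Shmt1 was at 9.64 ± 2.82 CPM in zona glomerulosa-like nuclei, 28.1 ± 12.9 in cluster 4, 54.7 ± 20.2 in zona fasciculata-like and 53.4 ± 13.6 in inner cortex-like nuclei. The zona fasciculata-like mean was 5.67-fold that of the zona glomerulosa-like nuclei. Every library followed the order zona glomerulosa-like, cluster 4, zona fasciculata-like (6 of 6). In KO replicate 2, the shallowest library, the first step, from 4.90 to 9.92 CPM, rested on few UMIs. The last 2 classes were not ordered: the inner cortex was the higher in 2 of 6. Outside the cortex, Shmt1 had 16.2 CPM in adipocyte-like and 2.89 CPM in chromaffin-like nuclei.

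Aldh1l1 gave the same order in 6 of 6 libraries, with a wider span. In zona glomerulosa-like nuclei it had 11.2 and 15.9 CPM in KO against 4.19, 11.2 and 8.25 in WT, beside 8.21 in the unassigned library. In zona fasciculata-like nuclei it had 71.7 and 147 CPM in KO against 63.0, 98.2 and 99.2 in WT, beside 189 in the unassigned library. The ranges of the 2 classes did not overlap, and the ratio of the means of the 5 grouped libraries was 9.43. The inner cortex-like class had 116 ± 38.0 CPM, above the zona fasciculata-like level in 3 of 6 libraries. Adipocyte-like nuclei, at 77.1 ± 42.8 CPM, were the third class in order and the highest outside the cortex.

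**Figure D2:**
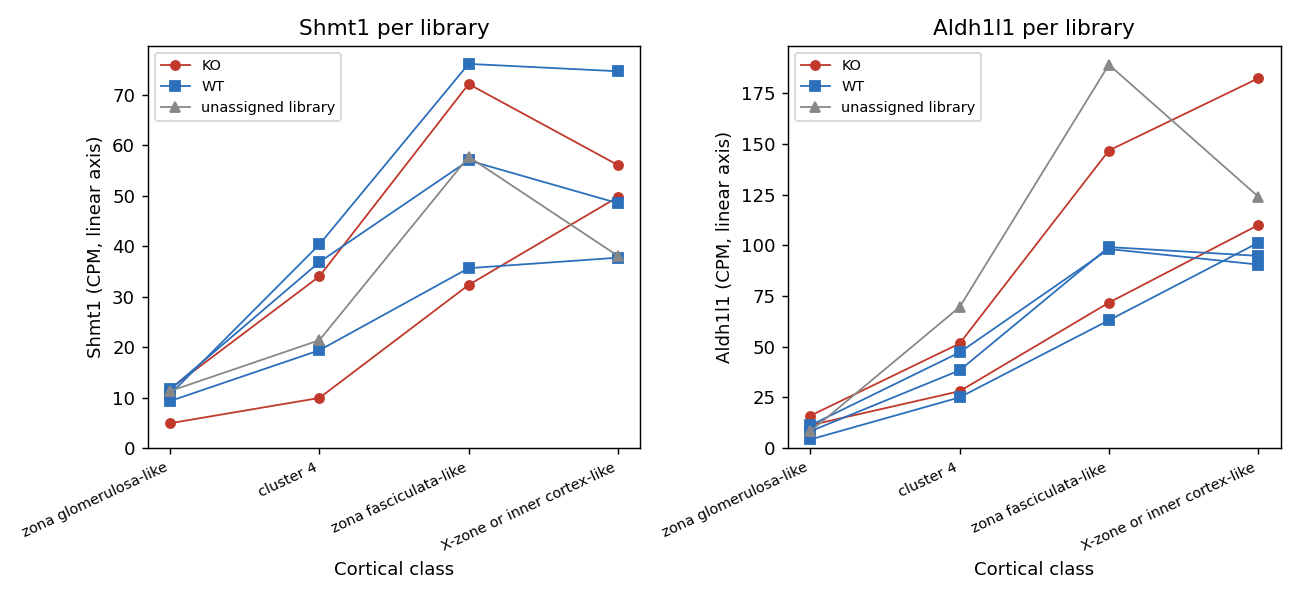
CPM of Shmt1 (left) and Aldh1l1 (right) in the 4 cortical classes on linear axes from 0, 1 line per library (circles KO, squares WT, triangle unassigned). For both genes all 6 libraries are lowest in zona glomerulosa-like nuclei, higher in cluster 4 and higher again in zona fasciculata-like nuclei.

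The mitochondrial counterparts did not show this order as widely. Shmt2 had 5.44, 6.75, 7.88 and 6.81 CPM from zona glomerulosa-like to inner cortex-like nuclei and followed the order of Shmt1 in 4 of 6 libraries. Among the better covered classes its highest mean was in chromaffin-like nuclei, at 11.6 ± 1.74 CPM on 120 UMIs; the pericyte or smooth muscle-like mean of 14.3 ± 11.7 CPM rested on 14 UMIs. Mthfd2 ran from 4.28 ± 1.35 CPM in zona glomerulosa-like to 10.5 CPM in zona fasciculata-like and 15.3 CPM in inner cortex-like nuclei, in that order up to the zona fasciculata-like class in 4 of 6 libraries. It had 22.3 ± 8.44 CPM in chromaffin-like nuclei. Aldh1l2 had its highest level in the Schwann or sustentacular-like class, at 44.6 ± 35.7 CPM on 23 UMIs, with 3.91 CPM in chromaffin-like nuclei next and 0 UMIs in cluster 19 in all 5 grouped libraries. Its Schwann or sustentacular-like level ran from 0 to 94.5 CPM between libraries.

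Mthfd1, the trifunctional cytosolic enzyme, was spread over all classes, from 9.87 CPM in cluster 19 to 50.8 ± 8.61 CPM in capsule or fibroblast-like nuclei, and all neighbours in the order overlapped. Mthfd1l, the mitochondrial formate producer, was also widespread, at 44.0 ± 11.5 CPM in chromaffin-like nuclei and 104 ± 49.0 CPM in T or NK-like nuclei. The exception was adipocyte-like nuclei, at 1.88 ± 2.46 CPM on 5 UMIs, the only neighbouring pair of classes whose ranges did not overlap for this gene. In the cortex Mthfd1l had no fixed order: the zona glomerulosa-like class was the highest in 3 of 6 libraries and cluster 4 in 2.

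Across the 13 classes, the log2(mean CPM + 1) of 13282 genes was compared with that of Psat1 and Mthfd1l. The 5 genes most like Psat1 were Bcan (Pearson's r = 0.91), Cdk5rap2 (0.83), Parp16 (0.79), Haus4 (0.78) and Olfml2a (0.77). Among those most like Mthfd1l were Dnajc18 (0.96), Slc25a12 (0.92), Lrif1 (0.91) and Zfp763 (0.88). The classes share libraries and differ in depth, so these values describe 13 points only.

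Pairs of member and class with too few UMIs to fit are not ranked. An example is Aldh1l2 in Schwann or sustentacular-like nuclei, with means of 78.4 CPM in KO and 22.1 CPM in WT on 23 UMIs. Among the fitted pairs, the largest fold between KO and WT was that of Mthfd1l in zona glomerulosa-like nuclei. It had 44.7 and 29.4 CPM in the KO libraries, on 179 and 24 UMIs, and 110.5, 80.0 and 110.6 CPM in the WT libraries, on 975, 129 and 362 UMIs. The unassigned library had 99.2 CPM on 387 UMIs. Both KO libraries lay below all WT libraries and below the unassigned one, and the 95% Poisson intervals, which cover counting error only, reached up to 51.7 CPM in KO and down to 66.8 CPM in WT. The means were 37.1 ± 10.8 CPM (SD, n = 2) and 100.4 ± 17.6 CPM (SD, n = 3), and the fitted log2 fold of KO over WT was -1.46 ± 0.20 (SE). The libraries were also compared within the Cell Ranger version that their file headers name. The log2 fold was -1.31 for version 4.0.0 (KO replicate 1, WT replicate 1) and -1.70 for 3.1.0 (KO replicate 2, WT replicates 2 and 3).

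In that class 45 of 11398 genes passed an adjusted p of 0.05 (0.395%), and Mthfd1l was the 1 member of the 8 tested that did; this contrast chose the gene, so nothing is read from the call. The call was lost without the term for Cell Ranger version. It was also lost with the unassigned library added to KO, which brought the fold to -0.73, and with it added to WT, at a fold of -1.51.

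At a finer resolution the same zona glomerulosa-like nuclei were split into sub-clusters. Their values describe the difference again in the nuclei that chose the gene, and add no test of it. In the first, Mthfd1l had 29.4 and 18.7 CPM in KO against 107.5, 80.1 and 105.7 in WT, beside 101.4 in the unassigned library. In the other it had 59.3 and 44.8 CPM in KO against 114.0, 80.0 and 116.4 in WT, beside 96.6 in the unassigned library. KO lay below WT in each. In the second, however, the 95% Poisson intervals of both KO libraries overlapped that of WT replicate 2. They reached up to 70.8 and 73.9 CPM in KO, and down to 59.4 CPM in WT replicate 2. The share of nuclei with a Mthfd1l UMI was 22.1% and 5.58% in KO against 49.8%, 19.7% and 41.4% in WT, and follows depth. With every nucleus thinned to 1000 UMIs it was 5.77% (95% Clopper-Pearson interval 3.93 to 8.13) and 3.72% (1.93 to 6.40) in KO against 9.05% (7.10 to 11.3), 6.34% (4.35 to 8.88) and 11.1% (8.35 to 14.3) in WT. The intervals of both KO libraries overlapped that of WT replicate 2, and that of KO replicate 1 also overlapped that of WT replicate 1. Thinning left out 71 nuclei of KO replicate 2, 4 of WT replicate 2 and 0 of the others. Adipocyte-like nuclei, taken as the class that lacks the gene, had 0 of 53 to 100 thinned nuclei with a UMI in each library. Median depth was 1796 to 11137 UMIs in the zona glomerulosa-like class and 1733 to 11972 in the adipocyte-like class of the grouped libraries.

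Several other measures also differed between the KO and WT libraries in the same nuclei, and their part in the Mthfd1l difference was not tested. Of 20 marker lists, 6 summed higher in both KO libraries than in all WT libraries, 1 lower, and 13 overlapped. Of single genes in this class, 25.4% did not overlap between KO and WT. The higher lists were zona fasciculata, steroidogenic, chromaffin, capsule or fibroblast, T or NK and adipocyte. The summed zona glomerulosa markers were lower in KO, at 7841 and 7645 CPM against 8360, 8163 and 8909 in WT, with 0 of the 12 markers at 0. The summed zona fasciculata markers were higher in KO, at 3582 and 3280 CPM against 3191, 3234 and 3132, with 0 of 10 at 0. Summed chromaffin markers were at 135 and 159 CPM in KO against 83.1, 132 and 60.8 in WT, with 1 of 14, Cartpt, at 0. Adipocyte markers were at 39.4 and 36.8 CPM in KO against 13.4, 28.5 and 17.1 in WT, with 0 of 9 at 0. The level of Gm42418 in this class, given above, was also above WT in both KO libraries. The same held in every other cortical class. In cluster 4, for example, Gm42418 was at 15994 and 14572 CPM in KO against 6937, 9068 and 3568 in WT.

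**Figure D3:**
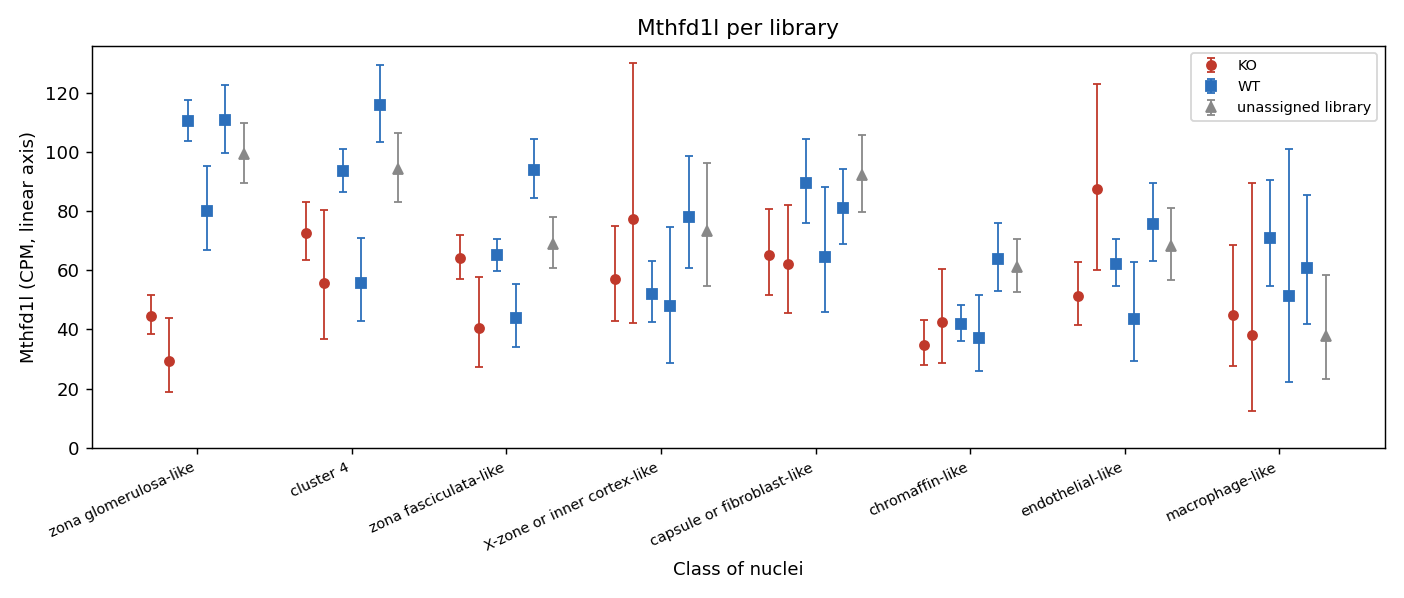
Mthfd1l CPM per library (linear axis) in the 4 cortical and 4 other classes; points are libraries (circles KO, squares WT, triangle unassigned) and bars are 95% Poisson intervals. In zona glomerulosa-like nuclei the KO libraries, at 44.7 and 29.4 CPM, lie below all WT libraries, and in the other classes drawn the groups overlap, except in macrophage-like nuclei, where the intervals are wide.

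Outside that class the fold of Mthfd1l was smaller. In cluster 4 it had 72.7 and 55.5 CPM in KO against 93.4, 55.6 and 116 in WT, with a log2 fold of -0.49 ± 0.27. In zona fasciculata-like nuclei it had 64.2 and 40.4 CPM in KO against 65.1, 43.8 and 93.9 in WT (-0.46 ± 0.38). In the inner cortex-like class it had 57.2 and 77.4 CPM in KO against 52.1, 47.8 and 77.9 in WT (0.17 ± 0.34). KO and WT libraries overlapped in all 3 classes. The difference between classes in this fold was not tested.

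For Psat1 the KO and WT libraries did not separate in the outer cortex. In cluster 4 it had 15.0 and 23.8 CPM in KO (45 and 12 UMIs), 17.3, 27.0 and 35.7 CPM in WT (117, 32 and 97 UMIs) and 112 CPM in the unassigned library (308 UMIs). The KO and WT values overlapped, and the log2 fold was -0.30 ± 0.31. In zona glomerulosa-like nuclei it had 11.2 and 15.9 CPM in KO against 13.3, 11.2 and 14.7 in WT, beside 52.6 in the unassigned library, with a log2 fold of -0.05 ± 0.31. In zona fasciculata-like nuclei it had 9.07 and 16.2 CPM in KO against 5.27, 16.3 and 21.2 in WT, beside 45.7 in the unassigned library, with a log2 fold of 0.22 ± 0.43. The X-zone or inner cortex-like class had 10 UMIs of Psat1 over all 6 libraries and was not fitted.

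The unassigned library alone was high. It held 3.12 times the highest of the other 5 libraries in cluster 4, 3.30 times in zona glomerulosa-like and 2.15 times in zona fasciculata-like nuclei, with Poisson intervals apart from all 5. In these classes 2.75%, 2.75% and 3.13% of the genes tested lay above all 5 libraries in the same way, and Psat1 was the 1 member that did. The sign of the KO against WT fold of Psat1 followed the group given to this library. Counted as KO it brought the log2 fold to 0.87 in cluster 4 and 0.91 in zona glomerulosa-like nuclei, and counted as WT to -0.77 and -0.51.

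After thinning to 1000 UMIs, 10.0% of the unassigned library's cluster 4 nuclei had a Psat1 UMI (95% interval 7.19 to 13.5), against 0.75% to 3.86% in the other libraries. Unthinned, the share was 42.9% at a median of 6334 UMIs, against 3.92% to 18.8%. Thinned chromaffin-like nuclei had a Psat1 UMI in at most 0.415% of nuclei in any library, at medians of 2318 to 14790 UMIs before thinning. The point value of Psat1 in the unassigned library was also the highest of the 6 in 5 further classes, with intervals that overlapped those of other libraries. It was at 4.70 CPM in chromaffin-like nuclei (others 0.681 to 2.81), 9.16 CPM in capsule or fibroblast-like nuclei (0 to 5.88) and 5.64 CPM in inner cortex-like nuclei (0 to 2.52). It was at 16.1 CPM in adipocyte-like nuclei (0 to 10.0) and at 8.11 CPM in the pericyte class (0 to 7.40). Its 2.64 CPM in endothelial-like nuclei lay within the range of the others, 1.72 to 5.30 CPM.

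**Figure D4:**
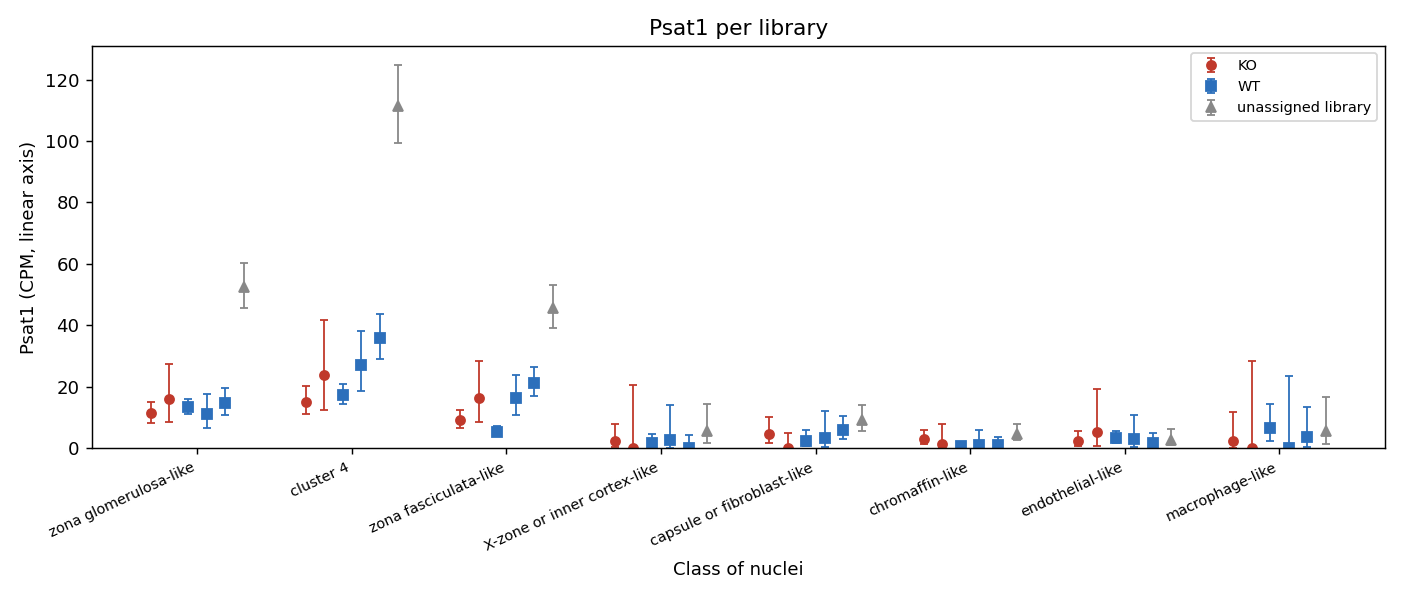
Psat1 CPM per library (linear axis) in the 4 cortical and 4 other classes, drawn as for Mthfd1l, with 95% Poisson intervals. The unassigned library, at 112, 52.6 and 45.7 CPM in cluster 4, zona glomerulosa-like and zona fasciculata-like nuclei, lies above the KO and WT libraries, which overlap.

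No other member lay above or below all 5 remaining libraries with intervals apart, in any class where it was fitted. Aldh1l1 in zona fasciculata-like nuclei came near, at 189 CPM against 63.0 to 147 CPM, with an interval that overlapped that of KO replicate 2. The unassigned library's Mthfd1 was the lowest of the 6 in all 4 cortical classes, for example 12.9 CPM in zona fasciculata-like nuclei against 24.2 to 36.1 CPM, again overlapping KO replicate 2 in its interval. This was not particular to the cortex. It was also the lowest in endothelial-like, chromaffin-like, capsule or fibroblast-like and adipocyte-like nuclei. Over all nuclei it was at 20.9 CPM against 31.6 to 43.4 CPM. In macrophage-like nuclei it was the highest, at 32.2 CPM. The library's Phgdh was at 0.362 CPM in cluster 4 on 1 UMI. In this library Mthfd2 was at 2.54 CPM in cluster 4 (others 3.37 to 9.92) and 3.58 CPM in zona fasciculata-like nuclei (8.19 to 12.5). It was at 4.23 CPM in inner cortex-like nuclei (8.52 to 27.6) and 4.62 CPM in zona glomerulosa-like nuclei (2.45 to 5.55). Shmt2 lay within the range of the others in zona glomerulosa-like nuclei, cluster 4 and zona fasciculata-like nuclei. In inner cortex-like nuclei Shmt2 was at 1.41 CPM (4.01 to 10.1). Genes that the transcription factor ATF4 is known to induce, among which Phgdh, Psat1, Shmt2 and Mthfd2 are also counted, were followed by a list of 36 further genes, of which 34 were in the files. In zona fasciculata-like nuclei 6 of the 28 measured lay above all 5 other libraries (Atf4, Slc3a2, Aldh18a1, Ppp1r15a, Slc38a2 and Eprs) and 1, Gars, lay below. In cluster 4 it was 3 of 26 (Slc3a2, Slc38a2 and Eprs), in zona glomerulosa-like nuclei 3 of 24 (Slc7a5, Slc38a2 and Eprs), and in inner cortex-like nuclei 1 of 22 (Eprs). Over all genes tested the share that lay above was 3.13%, 2.75%, 2.75% and 1.64% in these classes, in that order. The share of all genes that lay below is not given here, so nothing is read from Gars. Eprs was also high in WT replicate 3. In zona fasciculata-like nuclei it had 1222 CPM there, against 109 and 102 CPM in KO and 100 and 131 CPM in WT replicates 1 and 2. The unassigned library had 2406 CPM. Over the 4 cortical classes, 41 pairs of gene and class were measured for the serine and glycine list and 43 for the folate list. Of these 0 lay above or below. Cth, the cystathionine lyase of transsulfuration, lay above in cluster 4, as 1 of 5 measured genes of its list. Ppat, the first enzyme of purine synthesis, lay above in cluster 4 and in zona fasciculata-like nuclei, as 1 of 6 measured in each.

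The 29 pairs of member and cortical class with enough counts to fit were also compared library by library. In zona glomerulosa-like nuclei the KO and WT libraries did not overlap for 4 of the 8 members fitted, where 25.4% of all genes did not. Shmt2 had 4.99 and 11.0 CPM in KO against 2.83, 4.96 and 3.36 CPM in WT, on 8 to 25 UMIs a library, with a log2 fold of 1.09 ± 0.48. KO replicate 1 and WT replicate 2 differed by less than their counting error. Aldh1l1, whose values are given above, had a log2 fold of 1.11 ± 0.36, and its KO replicate 1 and WT replicate 2 both rounded to 11.2 CPM. Mthfd2 had 3.25 and 2.45 CPM in KO against 5.55, 4.96 and 5.19 CPM in WT (-0.86 ± 0.51), with only 2 UMIs in KO replicate 2. Within Cell Ranger versions 4.0.0 and 3.1.0, in that order, the log2 folds were 0.82 and 1.41 for Shmt2. They were 1.42 and 0.72 for Aldh1l1 and -0.77 and -1.05 for Mthfd2.

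The median log2 fold of the 8 members there was -0.06, against 0.03 over all genes of the class. In cluster 4, 2 of 8 members did not overlap (Psph, lower in KO, and Mthfd2, higher), beside 19.3% of all genes. Psph had 9.68 and 5.95 CPM in KO against 15.7, 10.1 and 9.95 in WT (-0.72 ± 0.41). Mthfd2 there had 9.01 and 9.92 CPM in KO against 7.83, 3.37 and 6.63 in WT (0.42 ± 0.51), opposite in sign to the zona glomerulosa-like class. In zona fasciculata-like nuclei Mthfd2 was the 1 of 8 that did not overlap, at 12.5 and 12.1 CPM in KO against 8.19, 11.3 and 8.22 in WT (0.43 ± 0.43), beside 16.4% of all genes. In the inner cortex-like class it was 2 of 5, Mthfd1 and Aldh1l1, beside 19.6%. Aldh1l1 there had 110.0 and 182 CPM in KO against 101, 90.5 and 94.8 in WT, with a log2 fold of 0.53 ± 0.29.

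**Figure D5:**
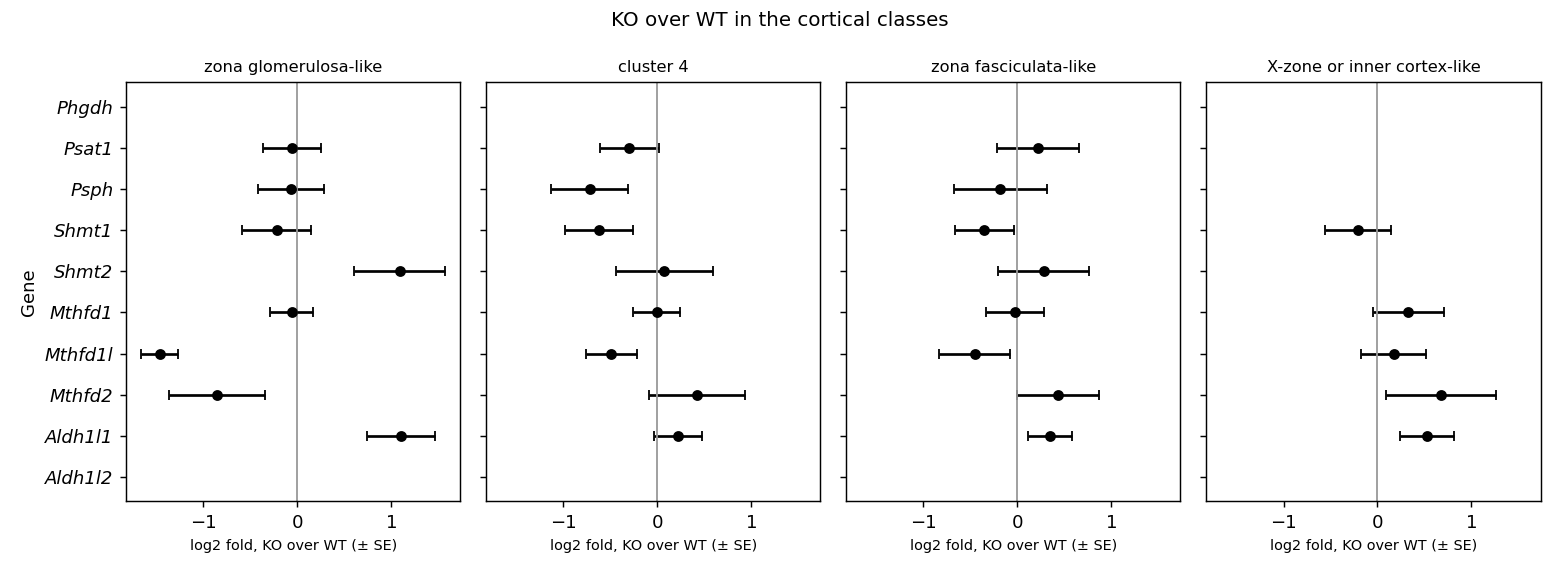
Fitted log2 fold of KO over WT with its SE (horizontal bars) for each member (rows) that passed the low-count filter in each cortical class (panels). Mthfd1l in zona glomerulosa-like nuclei, at -1.46, lies farthest from 0; members without a point were not fitted.

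Outside the cortex the contrast did not choose the members, and it was tested in edgeR by quasi-likelihood, with p-values adjusted by Benjamini-Hochberg over all genes of a class. Of the 25 pairs of member and class that passed the low-count filter, 0 passed an adjusted p of 0.05, and 2 had an unadjusted p under 0.05; with DESeq2 0 members passed as well. The background was 55 of 59160 pairs of gene and class (0.093%) at the adjusted threshold and 3056 (5.17%) at an unadjusted p under 0.05. The adjusted p ran from 0.535 to 1.00, and log2 folds from -0.94 to 1.03, 11 above and 14 below 0. Most pairs of member and class outside the cortex, 65 of 90, held too few UMIs for the fit, including every member in the Schwann or sustentacular-like class.

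The 2 pairs with the smallest p were both Aldh1l1. In adipocyte-like nuclei it had 64.0 and 150.5 CPM in KO against 42.5, 53.4 and 75.1 CPM in WT, beside 87.3 CPM in the unassigned library. The groups overlapped, and the log2 fold was 0.95 ± 0.38 (edgeR adjusted p = 0.535). In chromaffin-like nuclei it had 10.4 and 24.0 CPM in KO against 7.26, 10.3 and 6.18 CPM in WT, on 10 to 32 UMIs each. KO replicate 1 and WT replicate 2 lay side by side there, and the log2 fold was 1.03 ± 0.44 (adjusted p = 0.914). Mthfd1l in the other classes had log2 folds of -0.38 ± 0.22 in capsule or fibroblast-like, -0.30 ± 0.26 in chromaffin-like, -0.61 ± 0.40 in macrophage-like (38.3 and 44.7 CPM in KO, 51.2 to 71.0 in WT) and 0.05 ± 0.28 in endothelial-like nuclei. It had -0.74 ± 0.64 in T or NK-like nuclei, -0.29 ± 0.67 in cluster 19 and -0.63 ± 0.49 in the pericyte or smooth muscle-like class. The edgeR adjusted p of these 7 ran from 0.871 to 1.00.

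The other genes of these pathways were followed by 5 lists with 81 genes, of which 79 were found in the files. Over the 13 classes 494 pairs of gene and class could be fitted, and 0 passed the adjusted threshold in either direction, beside 0.099% of all pairs in these classes. At an unadjusted p under 0.05, 14 were higher and 11 lower in KO, where 5.35% of all 102015 pairs passed, 3.12% higher and 2.23% lower. For serine and glycine (transporters, glycine cleavage, serine breakdown) it was 89 pairs, 5 higher and 0 lower. For folate handling it was 90 pairs, 1 higher and 5 lower. The methionine cycle and transsulfuration (48 pairs) and purine synthesis (53 pairs) had 0 in either direction, and the ATF4 list (214 pairs) had 8 higher and 6 lower.

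Among the smallest p of the serine and glycine list, Sfxn1, a mitochondrial serine carrier, averaged 268 CPM in KO and 109 CPM in WT adipocyte-like nuclei, with a log2 fold of 1.33 ± 0.29 and an edgeR adjusted p of 0.0878. Sdsl, a serine dehydratase-like gene, averaged 45.6 and 21.3 CPM in zona glomerulosa-like nuclei (log2 fold 1.26 ± 0.29) and 80.4 and 40.1 CPM in zona fasciculata-like nuclei (1.02 ± 0.36). Slc25a32, the mitochondrial folate carrier, averaged 24.9 CPM in KO and 52.4 CPM in WT macrophage-like nuclei (-1.26 ± 0.49, adjusted p = 0.723) and 11.5 and 19.7 CPM in zona glomerulosa-like nuclei (-0.70 ± 0.29).

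Of the ATF4 list, Ddit4, a stress-induced inhibitor of mTORC1, averaged 28.7 CPM in KO and 83.3 CPM in WT macrophage-like nuclei (-1.68 ± 0.43, adjusted p = 0.180). Slc7a5, a large neutral amino acid transporter, averaged 31.8 and 11.8 CPM in capsule or fibroblast-like nuclei (1.26 ± 0.35, adjusted p = 0.310), and Gpt2, a mitochondrial alanine aminotransferase, 344 and 166 CPM in Schwann or sustentacular-like nuclei (0.95 ± 0.41, adjusted p = 1.00). Mat2a, the methionine adenosyltransferase, had log2 folds of 0.62 ± 0.31 in adipocyte-like nuclei and -0.82 ± 0.44 in cluster 19, and its regulatory subunit Mat2b -0.97 ± 0.54 in adipocyte-like nuclei, with adjusted p from 0.692 to 0.960. In purine synthesis, Ppat had -0.35 ± 0.20 in zona glomerulosa-like nuclei, Atic -0.55 ± 0.35 in cluster 4 and Paics -1.14 ± 0.80 in macrophage-like nuclei (adjusted p = 0.991).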

How the data were processed

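The deposited files hold UMI counts per gene and barcode, made by the authors. Cell Ranger, Seurat and mm10 are named, per the submitters' processing notes. Cell Ranger 4.0.0 made KO replicate 1 and WT replicate 1, and 3.1.0 made the others, per the file headers. The former list 32285 genes and the others 31053. No label names the gene annotation used. The sources used here do not say if intronic reads entered the counts.

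The members and lists were chosen with earlier results of these data known. Barcodes under 300 genes, or with a mitochondrial share of 5% or more (48 of 21724), were removed, as were the 642 highest scrublet doublet scores (0.8% per 1000 barcodes). All libraries were clustered together without genotype (scanpy 1.11.5, 2000 variable genes, 30 components, Harmony, Leiden resolution 0.8). A cluster was named when at least 3 markers of 1 of 20 lists had a log2 fold of at least 1 and a share of at least 10%, unless its 10 leading genes held more markers of another list than of that one. Cluster 19 had 9 endothelial markers past the rule and stayed unnamed because Aqp1 of the kidney tubule list, and 0 endothelial markers, stood among them; 6 of the 8 kidney tubule markers were at 0 there. The lists covered the cortical zones, chromaffin, capsule, endothelial, macrophage, dendritic, T or NK, B or plasma, Schwann, pericyte, adipocyte, neuron, mesothelial, liver, kidney, muscle and erythroid cells. B or plasma-like, mesothelial-like and hepatocyte-like nuclei (211, 135 and 50, the last with 46 in KO replicate 1) were under 20 nuclei in at least 1 grouped library and were not tested.

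Sums of counts per library and class were fitted with edgeR 4.0.16 (quasi-likelihood, TMM, filterByExpr, terms for Cell Ranger version and genotype, Benjamini-Hochberg, two-sided), tested on simulated data. DESeq2 1.42.0 and other settings were alternatives. Genes were named by rule: every member, Tmem127, the 3 smallest p of each list and the 5 genes most like Psat1 and Mthfd1l. Some genes the rule names are left out of the text. Replicates are numbered in the order of deposit.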

Additional observations from a re-analysis of the deposited data

Results flagged for a closer look

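Psat1 in the unassigned library, which no comparison uses, was above the level of the WT and KO libraries in 3 classes, at 112 CPM in cluster 4, 52.6 CPM in zona glomerulosa-like nuclei and 45.7 CPM in zona fasciculata-like nuclei. The highest WT values were 35.7, 14.7 and 21.2 CPM. Which genotype this library has is not settled by its labels.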

How the results depend on the processing

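The 54 fitted log2 folds of members were recomputed under 15 alternatives. These were DESeq2, its size factors in edgeR, no low-count filter, no term for Cell Ranger version, doublets kept and nuclei with at least 1000 genes. Further ones were resolutions of 0.4 and 1.2, the unassigned library as KO or as WT, and each grouped library left out. The count of pairs of member and class past the threshold was 1 (Mthfd1l in zona glomerulosa-like nuclei). It was 0 without the term for Cell Ranger version, 0 with the unassigned library as KO and 0 with it as WT. In the other 12 it was 1. The log2 fold ran from -1.72 to -0.73 over all, and the cause was not tested. Leaving out each library in turn gave 1 to 1.

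Of 785 alternative values, 709 kept their direction and side of the threshold or moved by less than 1 SE, and 39 cortical values moved by more. The remaining values are the 3 lost Mthfd1l calls and 34 turns of sign, for 13 pairs, counted outside the cortex alone. Of the 29 cortical folds, which were judged only by how far they moved, 16 crossed 0 under at least 1 alternative and 10 on leaving out 1 library; the cause was not tested. With doublets kept, Phgdh in adipocyte-like nuclei went to -0.11, Shmt1 in capsule or fibroblast-like to -0.038 and Mthfd1 in endothelial-like to -0.016. With at least 1000 genes, Phgdh in adipocyte-like went to -0.14, Mthfd1l in endothelial-like to -0.22 and Aldh1l1 in capsule or fibroblast-like to 0.24. With the unassigned library as KO, Mthfd1 went to -0.069 in capsule or fibroblast-like, -0.022 in chromaffin-like and -0.46 in endothelial-like nuclei, and Aldh1l1 in capsule or fibroblast-like to 0.088. Mthfd1 in endothelial-like was -0.054 without the term for Cell Ranger version. Mthfd2 in adipocyte-like was 0.27 with DESeq2, 0.060 without the term for Cell Ranger version and 0.018 with the unassigned library as WT.

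Leaving out 1 library gave ranges across 0: Phgdh in adipocyte-like -1.08 to 1.05, Psph in chromaffin-like -1.14 to 0.19, Psph in endothelial-like -0.93 to 0.64, Shmt1 in capsule or fibroblast-like -0.51 to 0.81, Mthfd1 in capsule or fibroblast-like -0.054 to 0.32, in chromaffin-like -0.10 to 0.63, in endothelial-like -0.085 to 0.30 and in macrophage-like -0.81 to 0.35. Mthfd1l ran from -6.96 to 0.28 in cluster 19, where KO replicate 2 had 0 UMIs and the lowest value is no measure of size, from -0.31 to 0.48 in endothelial-like and from -1.35 to 0.071 in pericyte or smooth muscle-like nuclei. Mthfd2 in adipocyte-like ran from -1.35 to 1.66 and Aldh1l1 in capsule or fibroblast-like from -0.73 to 0.40. In the cortex Psat1 ran from -0.26 to 0.70 in zona fasciculata-like and -0.26 to 0.26 in zona glomerulosa-like nuclei, Psph from -0.51 to 0.24 and -0.45 to 0.086 in the same classes, and Shmt1 from -1.12 to 0.12 in zona glomerulosa-like and -0.46 to 0.16 in inner cortex-like nuclei. Shmt2 ran from -0.36 to 0.27 in cluster 4, and Mthfd1 from -0.13 to 0.14 in cluster 4, -0.28 to 0.19 in zona fasciculata-like and -0.029 to 0.82 in inner cortex-like nuclei. Where this left 1 KO library, it was assumed to vary like the WT libraries.

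No paired analysis was possible because the labels carry no replicate numbers shared between groups. KO replicate 2, with the lowest depth, limits the KO values of low genes such as Mthfd2 and Psph.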
